A study of Caenorhabditis elegans with 8 samples.

Results

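Sperm of the nematode Caenorhabditis elegans were compared with oocytes in polyadenylated RNA, sequenced in 2 libraries of each gamete. The comparison covers every gene with at least 1 RPKM (reads scaled to gene length and to the reads of the library) in at least 2 of these 4 libraries, which were 11060 of the 21774 genes in the deposited table. The study follows the passage from oocyte to embryo and also has 2 libraries each of 1-cell and 2-cell embryos. These were used here to estimate the spread between replicates, to choose the genes tested and in the scalings that draw on all libraries. Their own levels are not given. Per the labels' protocols, sperm were cut from males of a fog-2(q71) mutant background, in which XX animals become females that make no sperm of their own. They were passed through nylon meshes and activated with the protease Pronase at 200 µg/mL for 30 minutes at 24 °C. Oocytes were picked by mouth pipette from adult wild-type N2 hermaphrodites that had been cut open. The strain field of all 8 libraries reads TX189 (OMA-1::GFP), at 24 °C, which differs from both of these sources. Strain, the sex of the parent and the way of collection therefore cannot be told apart from the kind of gamete. The number of worms behind a library is not given, and whether replicates came from separate cultures is not stated, so each p-value reflects only how far these libraries scatter. In bulk samples such as these, fewer cells of a type and less RNA per cell cannot be told apart.

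Sperm of nematodes have no flagellum and crawl on a pseudopod that is pushed forward by the polymerization of major sperm protein (MSP). As the spermatids bud off, ribosomes, actin and tubulin are left behind in a residual body and the chromatin is packed with small basic proteins, and the finished cell neither transcribes nor translates. Oocytes are large cells that are loaded with yolk, stop transcription before they are ovulated, and carry a store of messenger RNA whose translation is controlled by RNA-binding proteins until the embryo switches on its own genes. They also hold the precursors of the eggshell, which is built within minutes of fertilization.

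The libraries carried the transcripts their labels name. The summed level of 7 sperm marker genes was 6158 and 6929 RPKM in sperm, against 3.92 and 2.11 RPKM in oocytes, and that of 11 oocyte marker genes was 980.3 and 244 RPKM in sperm, against 22739 and 21764 RPKM in oocytes. The sperm libraries also held transcripts of other cells. The sum of 8 genes of the body wall muscle was 1411 and 4747 RPKM in sperm, against 6.32 and 3.65 RPKM in oocytes, with the troponin C gene pat-10 at 412 and 2804 RPKM in sperm, against 3.46 and 1.96 RPKM in oocytes. Cuticle genes summed to 543 and 1161 RPKM in sperm, against 10.7 and 18.3 RPKM in oocytes, and intestinal genes to 603 and 114 RPKM in sperm, against 3.23 and 3.88 RPKM in oocytes, with the defining intestinal regulator elt-2 at 0.618 and 0.391 RPKM in sperm and 0.0780 and 0.148 RPKM in oocytes. The sum was 54.3 and 64.6 RPKM in sperm, against 3.38 and 2.91 RPKM in oocytes for the somatic gonad, 13.6 and 39.7 RPKM in sperm, against 0.0921 and 0.0855 RPKM in oocytes for seminal fluid, 75.4 and 3.12 RPKM in sperm, against 4.26 and 5.28 RPKM in oocytes for yolk proteins and 107 and 134 RPKM in sperm, against 488 and 409 RPKM in oocytes for neurons. Called higher in sperm were 8 of 8 muscle genes, 4 of the 5 cuticle genes and 4 of the 4 intestinal genes that passed the filter, and both genes of the seminal fluid, while of the 4 yolk genes none was called, 4 were higher without sperm replicate 2, and vit-2 and vit-6 were also higher with the replicate block. The neuron and somatic gonad genes were called in both directions. Of the neuron genes, rab-3 and unc-64 were higher (log2 differences 2.69 and 1.74), and snb-1 and unc-119 lower (-2.11 and -1.17). The calls of unc-64 and unc-119 did not hold in every fit, and snb-1 made up most of the neuron sum in each library. Of the somatic gonad genes, inx-8 and inx-9 were higher (4.45 and 4.83) and lag-2 was lower (-1.42). The sperm libraries differed from each other: replicate 1 held more of the oocyte, intestinal and yolk markers, and replicate 2 held more of the muscle and cuticle markers. What part these other transcripts have in the results below was not tested, except where a value without 1 of the libraries is given.

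**Figure D1:**
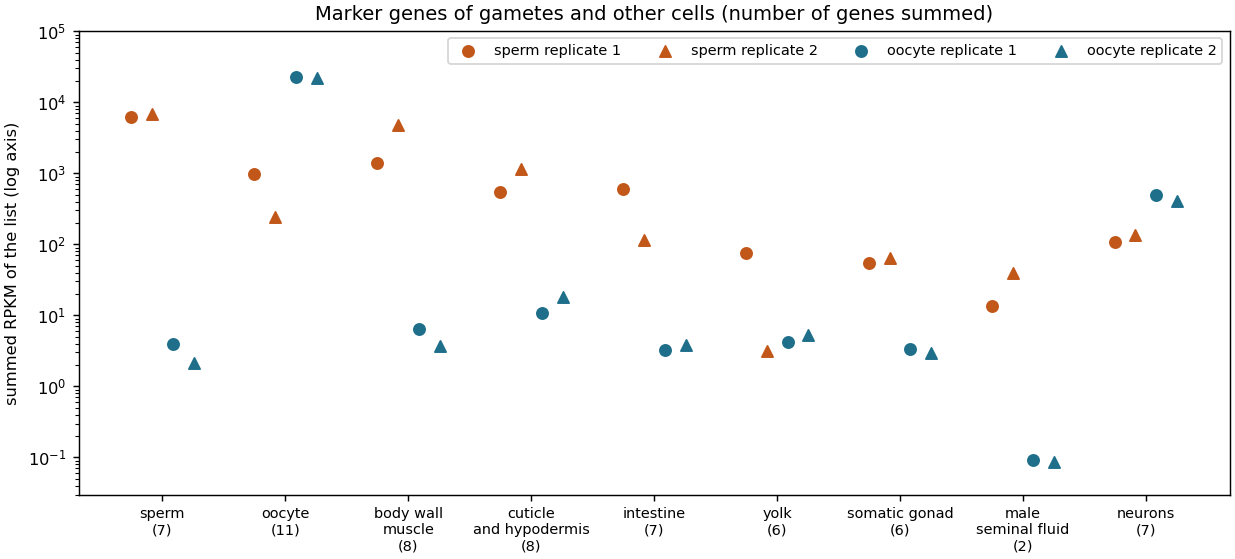
Summed RPKM (log axis) of marker genes of each gamete and of 7 other sources, with 1 point per library; circles are replicate 1, triangles replicate 2, sperm are orange and oocytes blue. Sperm markers stand at 6158 and 6929 RPKM in sperm and under 4 RPKM in oocytes, and body wall muscle at 1411 and 4747 RPKM in sperm and at 6.32 and 3.65 RPKM in oocytes.

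The libraries also differed in kind. Genes listed at 0 made up 18.8% and 12.7% of the table in sperm, against 2.48% and 2.93% in oocytes, and summed RPKM reached 954484 and 1013514 in sperm and 679187 and 642169 in oocytes. Replicates scattered by a median SD of 0.41 log2 in sperm, against 0.09 log2 in oocytes. The shortest genes stood higher in sperm: the median log2 difference between sperm and oocytes was 3.4 for 508 genes no longer than 500 nucleotides. It was -0.59, -0.65 and -0.47 in the next 3 of 5 length classes and 0.33 in the 312 longest genes, so it did not fall steadily with length. The shortest class holds the MSP genes and many ribosomal protein genes, so calls are also given with each library's trend on transcript length removed. All log2 differences below are of log2(RPKM + 1), sperm minus oocytes, tested with limma, and a gene was called at a Benjamini-Hochberg adjusted p under 0.05 and a difference of at least 1 in size. A single value in parentheses after a gene's levels is this log2 difference. Where the values of the gametes are said to lie apart, this describes the named genes and is no further test. The scale understates the difference of a gene that is near 0 in either gamete. A further fit with a variance weight for each group, which lets the spread differ between groups, called 4076 members higher and 2194 lower. Named genes that lost their call in it are given in the section on processing.

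Of the 11060 members, 4358 were higher in sperm, 2937 were lower and 3765 were not called. Over all 11935 genes tested, 36.7% were called higher and 24.6% lower, and these shares are the background for each gene list below. With the length trend removed, 41.7% of 10987 genes were called higher and 18.4% lower. The balance rests on how the libraries are scaled: the members split into 4040 higher and 3980 lower when the libraries are brought to a common sum, 5162 and 1928 with median-of-ratios scaling, 2807 and 4312 after quantile normalization, and 4479 and 2002 once the length trend was taken out. The median difference over all genes tested was 0.16 as deposited, -0.23 at a common sum, 0.77 with median-of-ratios scaling, -0.65 after quantile normalization and 0.60 once the length trend was taken out. No member called in either direction was called in the opposite direction under any of these scalings. Where the median of a list is read as a direction, it is also given less the median of all genes tested.

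At least 1 RPKM in all 4 libraries was reached by 6377 members, of which 681 were higher in sperm, 2435 were lower and 3261 were not called. A further 3707 members reached it in both sperm libraries and in neither oocyte library, and 375 in both oocyte libraries and in neither sperm library. Such genes entered only through the gamete in which they are high, so that their calls (3552 higher, 269 lower) follow in part from the filter. In the lists below, 22 of 30 MSP genes, 16 of 20 msd, ssp and ssq genes and 4 of 27 glycolysis and glycogen genes entered through sperm alone. Of 42 core histone genes, 2 entered through sperm alone and 9 through oocytes alone, and of 96 ubiquitin genes 18 and 11. Many of the genes higher in sperm were rare: 1730 had a sperm mean under 10 RPKM and 803 had at least 100 RPKM. Of those lower in sperm, 1028 had an oocyte mean of at least 100 RPKM. Sperm RNA was concentrated in fewer genes, with the first 50% of the summed RPKM held by 141 and 154 genes in sperm and by 341 and 435 genes in oocytes. The number of members at 1000 RPKM or more in both libraries was 145 in sperm and 67 in oocytes, and 6 genes were in both sets.

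**Figure D2:**
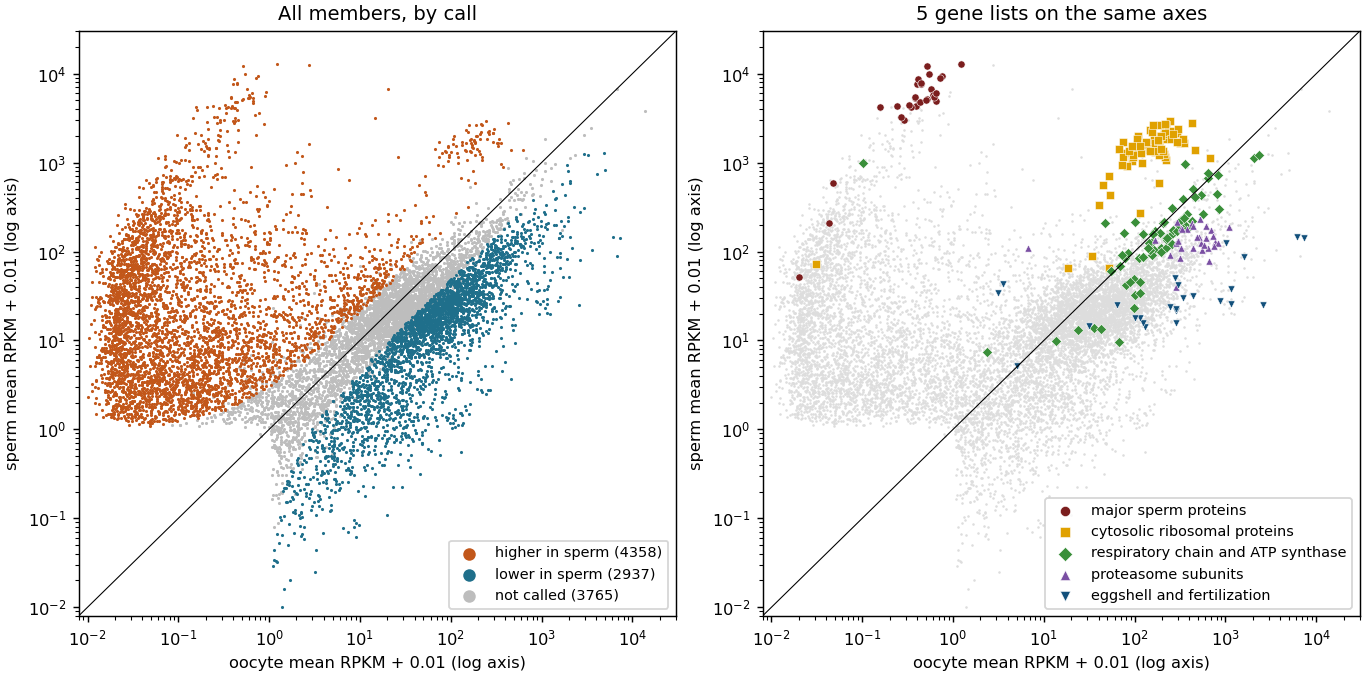
Mean RPKM of each of 11060 genes in sperm (vertical) and oocytes (horizontal), both log axes after adding 0.01; the left panel colours genes by call and the right panel marks 5 gene lists. The 30 MSP genes lie at the upper left, the cytosolic ribosomal protein genes lie above the line of equality, the respiratory chain lies along it, and proteasome and eggshell genes lie below it.

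Genes of the MSP cytoskeleton were the most abundant of those higher in sperm. The 30 MSP genes in the table summed to 173576 and 173597 RPKM in sperm, against 24.3 and 1.71 RPKM in oocytes, and 30 of 30 were higher, with log2 differences of 5.68 to 13.05. The most abundant, msp-53 (R13H9.4), had 14398 and 11055 RPKM in sperm, against 2.25 and 0.159 RPKM in oocytes, and its log2 difference was 12.67 (SE 0.58, adjusted p = 1.3e-06). msp-56 (K07F5.3) had 13750.0 and 10728 RPKM in sperm, against 0.963 and 0.0509 RPKM in oocytes, with a difference of 13.05 (SE 0.45, adjusted p = 1.06e-06). Both sperm libraries lay far above both oocyte libraries, and oocyte replicate 1 held more than replicate 2 for 29 of the 30 genes. Because the copies are near-identical, the split of reads among them is uncertain, and the family sum is the firmer value.

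The smaller relatives of MSP and other sperm-specific families followed the same pattern. The 20 msd, ssp and ssq genes, which encode short proteins with an MSP domain and other small proteins named for sperm, summed to 43994 and 53076 RPKM in sperm, against 11.2 and 1.69 RPKM in oocytes, and 20 of 20 were higher. ssp-9 (E03H12.10) had 5682 and 4851 RPKM in sperm, against 0.996 and 0.144 RPKM in oocytes, a difference of 11.76 (SE 0.61, adjusted p = 1.95e-06). msd-4 (C35D10.11) had 3517 and 7086 RPKM in sperm, against 1.13 and 0.198 RPKM in oocytes, a difference of 11.61 (SE 0.48, adjusted p = 1.12e-06). Of the 59 genes of the nematode-specific peptide families nspa to nspe, 32 passed the filter, 29 of them through the sperm libraries alone, so that they had to differ, and 32 were higher. The most abundant, nspa-4 (H12D21.13), had 7449 and 17684 RPKM in sperm, against 4.06 and 1.45 RPKM in oocytes, with a difference of 11.67 (SE 0.64, adjusted p = 2.47e-06). In these families the sperm replicates differed more than in the MSP family, with nspa-4 and msd-4 at more than 2 times the level of replicate 1 in replicate 2. Removing the length trend left 20 of 20 and 31 of 32 genes higher.

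Genes that act in spermatogenesis and sperm activation were higher in 36 of 41 cases. Of the 41, 27 passed the filter through the sperm libraries alone, so that they had to differ. The smz-1 gene (C25G4.6), for a sperm PDZ-domain protein, had 765 and 1138 RPKM in sperm, against 1.62 and 1.41 RPKM in oocytes (log2 difference 8.54). spe-11 (F48C1.7), whose protein is brought to the egg by the sperm, had 324 and 876 RPKM in sperm, against 0.0726 and 0.0203 RPKM in oocytes, and spe-9 (C17D12.6), for an EGF-repeat protein of the sperm surface needed for fertilization, had 28.2 and 42.04 RPKM in sperm, against 0.04203 and 0.0522 RPKM in oocytes. Their differences were 8.99 (SE 0.55, adjusted p = 4.06e-06) and 5.08 (SE 0.26, adjusted p = 1.96e-06). In all of these cases the 2 sperm values lay above both oocyte values. The lower gene was zipt-7.1, for a zinc transporter of sperm activation, with 64.9 and 43.03 RPKM in sperm, against 158 and 155 RPKM in oocytes (-1.55), a call that ended with median-of-ratios scaling and with the length trend removed. Not called were spe-39, wee-1.3, spe-48 and spe-36, and wee-1.3, for the kinase that holds CDK1 inactive, stood at 122.9 and 110.5 RPKM in sperm, against 113 and 119.6 RPKM in oocytes with a 95% interval of -0.83 to 0.84.

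Chromatin genes split between the gametes. The protamine-like spch-1 (C04G2.8), spch-2 and spch-3 were among the most abundant sperm transcripts. spch-1 had 3306 and 3105 RPKM in sperm, against 0.754 and 0.0628 RPKM in oocytes, a difference of 11.2 (SE 0.44, adjusted p = 1.06e-06). Among the genes for histone H3.3, his-70 (E03A3.4) had 125 and 202 RPKM in sperm, against 0.100028 and 0.0819 RPKM in oocytes and was higher (log2 difference 7.19, SE 0.34, adjusted p = 1.42e-06), while his-72 (Y49E10.6) had 299 and 87.2 RPKM in sperm, against 1098 and 893 RPKM in oocytes and was lower (log2 difference -2.61, SE 0.59, adjusted p = 0.00517). his-74, a further H3.3 gene, was also lower (-2.17). Of the linker histone genes, hil-8 had 12.5 and 29.5 RPKM in sperm, against 0.0926 and 0.0508 RPKM in oocytes (4.24). hil-4 had 233 and 86.8 RPKM in sperm, against 1729 and 1453 RPKM in oocytes (-3.47). The 2 sperm values and the 2 oocyte values did not overlap in any of these genes. Of 42 core histone genes that passed the filter, 2 were higher and 11 lower (6 lower without sperm replicate 2, 25 at a common sum, 33 with quantile normalization). Most core histone mRNAs end without a poly(A) tail, and many copies are identical, so these counts describe the polyadenylated part only.

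Centromere genes showed a further division. The gene for the centromeric H3 variant CENP-A, hcp-3, had 83.9 and 29.1 RPKM in sperm, against 149 and 159 RPKM in oocytes (-1.62), and its relative cpar-1 had 23.7 and 7.42 RPKM in sperm, against 187 and 210.3 RPKM in oocytes (-3.79). The CENP-C gene hcp-4 had 136 and 177 RPKM in sperm, against 21.3 and 20.2 RPKM in oocytes and was higher (log2 difference 2.85, SE 0.32, adjusted p = 0.00012). The call of hcp-3 ended without sperm replicate 2, without either oocyte replicate, with 2 other scalings (median-of-ratios and quantile) and once the length trend was removed, while those of cpar-1 and hcp-4 held in each of these fits. These 3 genes were singled out after their values were seen.

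Abundant transcripts higher in sperm also came from outside these families. far-1 (F02A9.2), for a secreted fatty acid and retinol binding protein, had 3731 and 9881 RPKM in sperm, against 27.7 and 12.8 RPKM in oocytes, a difference of 8.25 (SE 1.12, adjusted p = 0.000345). Its level in sperm replicate 2 was above that in replicate 1, as for the muscle and cuticle markers, whose sums are given above. Most members called higher did the same. Only 18.7% of them stood higher in sperm replicate 1, against 80.4% of the members called lower. The actin gene act-4 (M03F4.2) had 1121 and 1166 RPKM in sperm, against 31.5 and 20.4 RPKM in oocytes (log2 difference 5.44, SE 0.98, adjusted p = 0.00163). In both genes the sperm values lay above the oocyte values, and the part of somatic RNA in them was not tested.

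Genes for the eggshell and fertilization were lower in sperm. Of 25 genes, 20 were lower and 0 were higher by limma (2 higher with median-of-ratios scaling, with the length trend removed or without sperm replicate 2), with a median of -3.30. Less that of all genes tested, the median was -3.46 (-3.64 to -2.99 under the other scalings). Genes for the chondroitin proteoglycans of the eggshell were among the most abundant oocyte transcripts. cpg-2 (B0280.5) had 240.1 and 45.4 RPKM in sperm, against 7861 and 6869.6 RPKM in oocytes, a difference of -6.12 (SE 0.7, adjusted p = 0.000137), and cpg-1 (C07G2.1) had 243 and 46.3 RPKM in sperm, against 6976 and 5153 RPKM in oocytes, a difference of -5.8 (SE 0.72, adjusted p = 0.000207). egg-1 (B0244.8), for a receptor that sperm entry requires, had 43.8 and 8.05 RPKM in sperm, against 875 and 1416 RPKM in oocytes, and rme-2 (T11F8.3), the yolk receptor gene, had 60.5 and 15.3 RPKM in sperm, against 860.2 and 1447 RPKM in oocytes. Their differences were -5.79 (SE 0.95, adjusted p = 0.000992) and -5.14 (SE 0.6, adjusted p = 0.000158). Oocyte values lay above sperm values in all of these genes, and sperm replicate 1 held several times as much as replicate 2. Outside the list, the C-type lectin gene clec-87 (C25A1.8) had 169.6 and 10.01 RPKM in sperm, against 7668 and 5722 RPKM in oocytes (-7.26). The exceptions in the list were perm-2 at 63.4 and 5.21 RPKM in sperm, against 3.38 and 2.83 RPKM in oocytes and perm-4 at 82.2 and 4.01 RPKM in sperm, against 3.81 and 3.201 RPKM in oocytes, which were high in sperm replicate 1 only and were not called.

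Maternal RNA-binding regulators were lower in sperm in 27 of 44 cases and higher in 3, with a median less that of all genes of -2.85 (-3.03 to -2.27 under the other scalings). The CCCH zinc finger gene oma-2 (ZC513.6), which acts in oocyte maturation, had 47.96 and 7.84 RPKM in sperm, against 1551 and 1495 RPKM in oocytes (log2 difference -6.2, SE 0.80, adjusted p = 0.000275). puf-5 (F54C9.8), for a PUF-domain repressor, had 53.3 and 7.85 RPKM in sperm, against 1419 and 1761 RPKM in oocytes (log2 difference -6.17, SE 0.78, adjusted p = 0.000236), and the Y-box gene cey-2 (F46F11.2) had 469 and 152 RPKM in sperm, against 3047 and 2830.0 RPKM in oocytes (log2 difference -3.45, SE 0.53, adjusted p = 0.0007). The oocyte libraries stood above the sperm libraries in each case. The 3 higher genes were cpb-2 (C30B5.3), fog-1 (Y54E10A.4) and fbf-2. cpb-2 and fog-1 encode cytoplasmic polyadenylation element binding proteins, the second of which directs germ cells to become sperm. cpb-2 had 77.2 and 129 RPKM in sperm, against 0.0593 and 0.0267 RPKM in oocytes (log2 difference 6.59, SE 0.55, adjusted p = 2.13e-05), and fog-1 had 71.4 and 34.97 RPKM in sperm, against 11.8 and 12.1 RPKM in oocytes (log2 difference 1.98, SE 0.51, adjusted p = 0.00964). Calls of fog-1 ended without sperm replicate 1 or oocyte replicate 1, as did that of fbf-2, so of the 3 only cpb-2 kept its call in every fit that left out a library. Genes of mRNA decay were lower in 23 of 45 cases and higher in 5 (13 and 10 with median-of-ratios scaling, 16 and 8 once the length trend was taken out, 29 and 4 at a common sum), the lower ones including cgh-1, for a DEAD-box helicase, at 298 and 103 RPKM in sperm, against 1297 and 1449.8 RPKM in oocytes (-2.96), and the deadenylase gene ccf-1 at 69.4 and 25.5 RPKM in sperm, against 341 and 279.8 RPKM in oocytes (-2.84). The count of lower decay genes fell to 12 without sperm replicate 2, 13 without oocyte replicate 1 and 14 without oocyte replicate 2. pab-1, for the main poly(A)-binding protein, was among the higher ones at 785 and 480.0 RPKM in sperm, against 175 and 133 RPKM in oocytes (2.0).

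Germ granule genes also divided. Of 23, 10 were lower and 3 higher, against 6 lower and 6 higher with median-of-ratios scaling and 13 lower and 2 higher at a common sum. The lower group held 4 meg genes, for intrinsically disordered proteins that condense on the germ granules of the embryo. meg-1 (K02B9.1) had 5.07 and 0.458 RPKM in sperm, against 243 and 302 RPKM in oocytes (log2 difference -6.51, SE 0.63, adjusted p = 5.22e-05), and meg-2, meg-3 and meg-4 differed by -5.21, -4.51 and -4.67. The higher group held the Vasa-like helicase gene glh-1 at 251 and 186 RPKM in sperm, against 40.7 and 53.9 RPKM in oocytes (2.18), the helicase gene znfx-1 at 34.9 and 33.1 RPKM in sperm, against 2.12 and 2.94 RPKM in oocytes (3.32) and the Argonaute gene csr-1 at 157 and 117 RPKM in sperm, against 37.3 and 58.6 RPKM in oocytes (1.51). The call of csr-1 ended without sperm replicate 1 or oocyte replicate 1, and the count of lower genes was 6 without oocyte replicate 2. The scaffold genes pgl-1 and pgl-3 were lower (-1.64 and -1.7), both without a call under median-of-ratios scaling and pgl-1 also without sperm replicate 2 or oocyte replicate 2.

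Of 52 genes of small RNA pathways, 16 were higher and 12 lower, against shares of 36.7% and 24.6% in the background. The Argonautes of the male germ line stood apart: alg-3 (T22B3.2) had 242 and 309 RPKM in sperm, against 0.0905 and 0.0831 RPKM in oocytes (log2 difference 7.98, SE 0.38, adjusted p = 1.5e-06), and alg-4 (ZK757.3) had 259 and 361 RPKM in sperm, against 0.0517 and 0.0171 RPKM in oocytes (log2 difference 8.21, SE 0.34, adjusted p = 1.13e-06). wago-10, a further Argonaute gene, had 51.5 and 50.1 RPKM in sperm, against 0.04601 and 0.0161 RPKM in oocytes (5.65). Both sperm libraries held more than 200 RPKM of alg-3 and alg-4 where neither oocyte library reached 0.1 RPKM. Other genes of these pathways lay on both sides. The Dicer gene dcr-1 was higher at 43.4 and 36.1 RPKM in sperm, against 9.85 and 9.82 RPKM in oocytes (1.91), and the piRNA trimming gene parn-1 at 45.9 and 62.3 RPKM in sperm, against 1.54 and 2.57 RPKM in oocytes (4.18). The piRNA pathway genes pid-3 and tofu-6 were lower, at 81.5 and 35.9 RPKM in sperm, against 328 and 300.5 RPKM in oocytes (-2.51), and at 51.1 and 19.5 RPKM in sperm, against 177 and 210.0 RPKM in oocytes (-2.57). Also lower were ergo-1 (-3.28), the Argonaute gene of 26G RNAs in oocytes and embryos, the nuclear Argonaute gene nrde-3 (-3.24) and wago-4 (-2.33). The split depends on the scaling, with 8 higher and 20 lower at a common sum and 21 higher and 8 lower with median-of-ratios scaling, and 8 were higher without oocyte replicate 1.

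**Figure D3:**
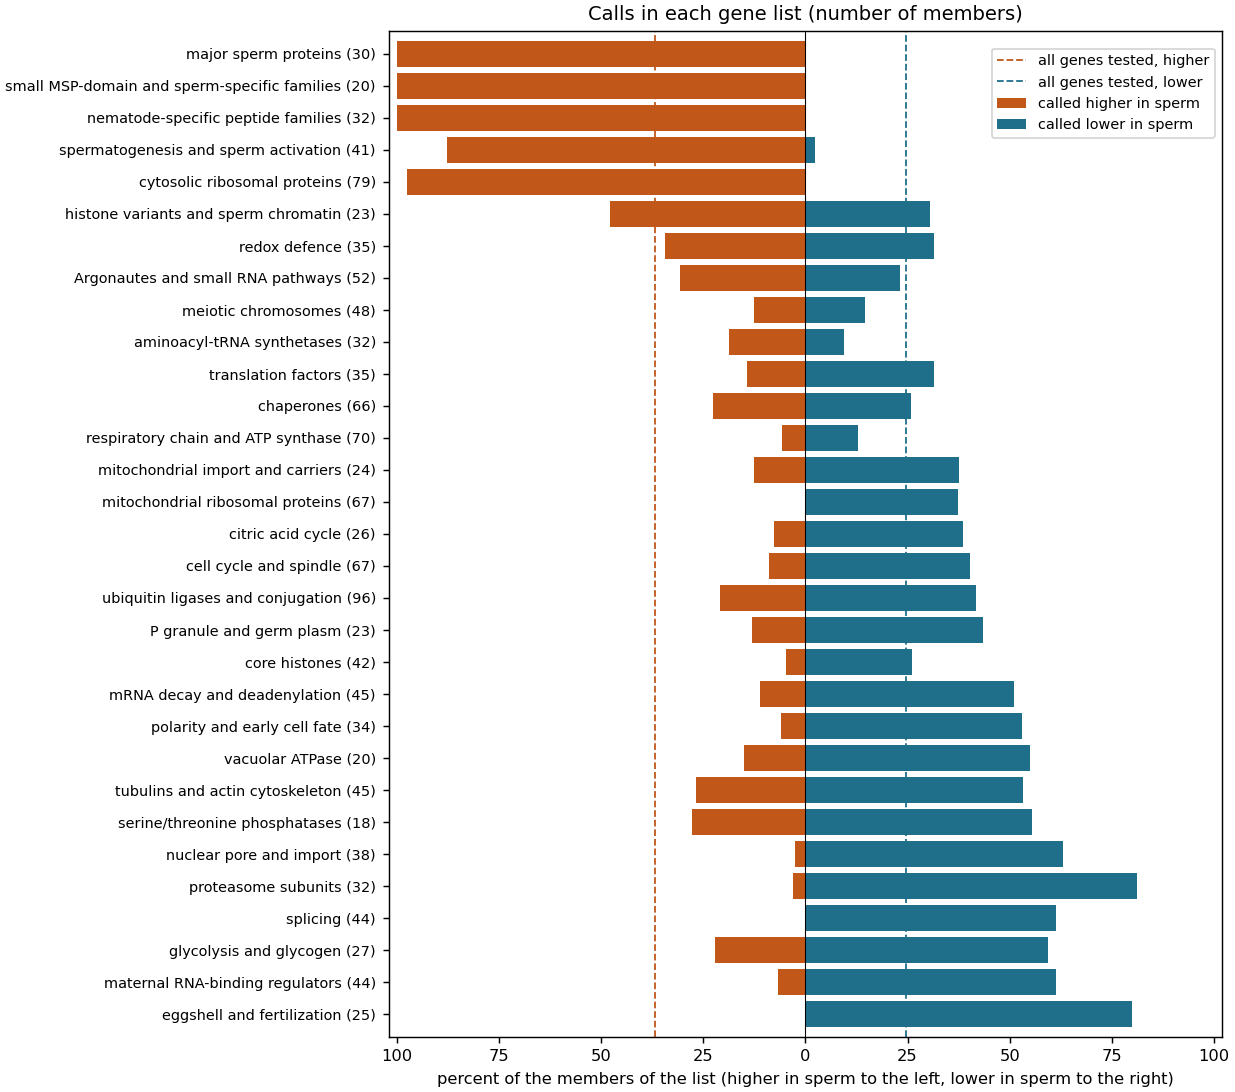
Share of the members of each of 31 gene lists that were called higher in sperm (orange, to the left) or lower (blue, to the right), ordered by median difference, with the number of members in parentheses; dashed lines give the shares over all genes tested, 36.7% higher and 24.6% lower. The sperm families and cytosolic ribosomal proteins lie at the higher end, and eggshell, RNA-binding, glycolysis, splicing and proteasome genes at the lower end.

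Paralogs that switch between the gametes were counted within families written by name and function, since no protein sequences were used. Of 28 families, 26 had at least 2 members, with 75 genes in all, of which 25 were higher, 31 were lower and the rest not called. Among the 81 pairs within these families, 26 pairs in 11 families had a gene higher in sperm and a partner lower in sperm, 8 pairs were both higher and 15 both lower. With the length trend removed 15 pairs switched, and without a library the number was 25 (sperm replicate 1), 16 (sperm replicate 2), 16 (oocyte replicate 1) and 17 (oocyte replicate 2). A second set held 77 groups of genes whose names differ only after the dot, with 190 genes, of which 71 were higher and 58 lower. Of its 170 pairs, 29 in 16 groups switched, against 23 with the length trend removed. More pairs went the same way, with 45 both higher and 17 both lower. In both sets, several genes on the sperm side entered through sperm alone, so that their calls follow in part from the filter. Among them are gsp-3, gsp-4, spe-4, alg-3, alg-4, htas-1, tba-4, tba-7, cdc-25.4, pfk-1.2 and the higher sfxn-1 genes. How many pairs of unrelated genes would switch was not computed for either set. The counts therefore do not show whether paralogs switch more often than other genes. This second set was added after the data had been seen.

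The protein phosphatase 1 family, whose sperm members act in chromosome segregation and sperm motility, divided between the gametes. gsp-3 (W09C3.6) had 1366 and 1240.1 RPKM in sperm, against 0.617 and 0.206 RPKM in oocytes (log2 difference 9.87, SE 0.37, adjusted p = 1.06e-06). gsp-4 (T03F1.5) had 1263 and 1093 RPKM in sperm, against 0.331 and 0.166 RPKM in oocytes (log2 difference 9.88, SE 0.42, adjusted p = 1.15e-06), while gsp-1 (F29F11.6), which acts in cell division, had 63.2 and 59.1 RPKM in sperm, against 213 and 216 RPKM in oocytes (log2 difference -1.79, SE 0.45, adjusted p = 0.00848). The 2 sperm genes were near 0 in oocytes, and gsp-1 was present in both gametes at a lower level in sperm. The call of gsp-1 ended without sperm replicate 2, with median-of-ratios scaling and with the length trend removed (-0.99). gsp-3 and gsp-4 are nearly identical, so the division of reads between them is uncertain. In the wider group of 18 serine/threonine phosphatase genes, 5 were higher and 10 lower, but 7 higher and 5 lower both with median-of-ratios scaling and once the length trend was taken out. The lower ones included the PP2A catalytic gene let-92 at 99.3 and 59.9 RPKM in sperm, against 502 and 445 RPKM in oocytes (-2.6) and its scaffold gene paa-1 at 144 and 81.05 RPKM in sperm, against 642 and 540.0 RPKM in oocytes (-2.43).

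Presenilins, the catalytic proteins of gamma-secretase, divided as well. spe-4 (ZK524.1), which acts in the membranous organelles of spermatids, had 132 and 202 RPKM in sperm, against 0.0518 and 0.04703 RPKM in oocytes (log2 difference 7.29, SE 0.37, adjusted p = 1.73e-06). sel-12 (F35H12.3), which acts in Notch signalling, had 2.61 and 1.32 RPKM in sperm, against 40.6 and 41.5 RPKM in oocytes (log2 difference -3.86, SE 0.46, adjusted p = 0.000173), and hop-1 had 20.7 and 11.1 RPKM in sperm, against 40.6 and 53.6 RPKM in oocytes (log2 difference -1.56, SE 0.40, adjusted p = 0.0101). spe-4 lay below 0.1 RPKM in both oocyte libraries, and neither of the others overlapped between gametes. The call of hop-1 ended without oocyte replicate 2, with median-of-ratios scaling and with the length trend removed. The vacuolar ATPase, a proton pump that acidifies the same organelles, has 2 genes for its B subunit. spe-5 (Y110A7A.12) had 40.4 and 37.3 RPKM in sperm, against 7.18 and 8.303 RPKM in oocytes (log2 difference 2.19, SE 0.54, adjusted p = 0.00756), and vha-12 (F20B6.2) had 19.5 and 47.5 RPKM in sperm, against 372 and 324 RPKM in oocytes (log2 difference -3.47, SE 0.44, adjusted p = 0.000247). In sperm the 2 stood at a like level, with vha-12 lower in replicate 1 and higher in replicate 2, and in oocytes vha-12 was far the more abundant. The call of spe-5 ended when either sperm library was left out, and that of vha-12 did not.

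In the AGO clade of Argonautes, alg-3 and alg-4, given above, were set against the microRNA Argonaute genes alg-1 (F48F7.1) and alg-2 (T07D3.7). alg-2 had 5.504 and 1.98 RPKM in sperm, against 149 and 109.6 RPKM in oocytes (log2 difference -4.87, SE 0.45, adjusted p = 3.96e-05), and alg-1 had 2.71 and 2.58 RPKM in sperm, against 26.4 and 28.9 RPKM in oocytes (log2 difference -2.97, SE 0.36, adjusted p = 0.000191). The third of this kind, alg-5, had 18.02 and 9.55 RPKM in sperm, against 27.8 and 34.2 RPKM in oocytes (-1.17), a call that ended without sperm replicate 2 or either oocyte replicate and with the length trend removed. alg-1 and alg-2 thus switched with both male genes in every scaling tested. Histone H2A variants formed a pair of the same form, with htas-1 (ZK1251.1) at 257 and 561 RPKM in sperm, against 0.0693 and 0.0228 RPKM in oocytes (log2 difference 8.51, SE 0.40, adjusted p = 1.42e-06) and the H2A.Z gene htz-1 (R08C7.3) at 185 and 45.8 RPKM in sperm, against 933 and 943 RPKM in oocytes (log2 difference -3.33, SE 0.62, adjusted p = 0.00192). Sperm held htz-1 at a level that differed between its libraries, while htas-1 was below 0.1 RPKM in both oocyte libraries.

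Enzymes of sugar metabolism also came in alternative forms. The aldolase gene aldo-1 (T05D4.1) had 126 and 223 RPKM in sperm, against 6.24 and 3.16 RPKM in oocytes (log2 difference 4.95, SE 0.47, adjusted p = 4.33e-05), and aldo-2 (F01F1.12) had 312 and 273 RPKM in sperm, against 1550.3 and 1264 RPKM in oocytes (log2 difference -2.26, SE 0.31, adjusted p = 0.00037). The sum of both genes was higher in oocytes, and sperm held both at levels within 3 times of each other. The phosphofructokinase gene pfk-1.2 (C50F4.2) had 64.6 and 114 RPKM in sperm, against 0.0392 and 0.00983 RPKM in oocytes (log2 difference 6.4, SE 0.33, adjusted p = 2.01e-06), and pfk-1.1 (Y71H10A.1) had 6.32 and 13.5 RPKM in sperm, against 86.9 and 112 RPKM in oocytes (log2 difference -3.28, SE 0.51, adjusted p = 0.000754). Here the more abundant gene of each gamete was the rarer gene of the other. For glycogenin, which primes glycogen synthesis, gyg-1 had 14.95 and 29.9 RPKM in sperm, against 1.47 and 1.97 RPKM in oocytes (3.03) and gyg-2 had 72.1 and 10.4 RPKM in sperm, against 1264 and 1104 RPKM in oocytes (-5.35). The phosphoenolpyruvate carboxykinase gene pck-3 had 138 and 198 RPKM in sperm, against 0.0557 and 0.0308 RPKM in oocytes (7.32), and pck-1 had 36.1 and 73.7 RPKM in sperm, against 0.577 and 0.384 RPKM in oocytes (5.16), while pck-2 had 45.3 and 98.6 RPKM in sperm, against 152 and 147 RPKM in oocytes and was not called.

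B-type cyclins, the partners of CDK1 in mitosis and meiosis, switched with a smaller rise on the sperm side. cyb-1 (ZC168.4) had 1031 and 1771 RPKM in sperm, against 588 and 656 RPKM in oocytes (log2 difference 1.12, SE 0.37, adjusted p = 0.0287), and cyb-3 (T06E6.2) had 134 and 25.9 RPKM in sperm, against 2870.3 and 2477 RPKM in oocytes (log2 difference -5.47, SE 0.78, adjusted p = 0.000445). cyb-2.1 and cyb-2.2, which are nearly identical, differed by -3.95 and -3.35. cyb-1 was thus the most abundant B-type cyclin transcript in sperm and cyb-3 in oocytes, on the RPKM scale. The rise of cyb-1 was not called with a variance weight for each group, with no filter on low values or with only gamete libraries fitted. The call of cyb-1 ended without sperm replicate 2, without either oocyte replicate, at a common sum and with quantile normalization, while those of the other 3 held. The CDC25 phosphatase genes, which remove the brake on CDK1, gave a wider switch: cdc-25.4 (R05H5.2) had 50.3 and 74.1 RPKM in sperm, against 0.0895 and 0.00808 RPKM in oocytes (log2 difference 5.89, SE 0.38, adjusted p = 4.99e-06), and cdc-25.1 (K06A5.7) had 42.97 and 17.7 RPKM in sperm, against 269.8 and 310.4 RPKM in oocytes (log2 difference -3.34, SE 0.46, adjusted p = 0.000392). cdc-25.2 and cdc-25.3 were lower as well (-5.25 and -5.0). Over 67 genes of the cell cycle and spindle, 6 were higher and 27 lower (3 and 21 without oocyte replicate 2, 17 and 20 with median-of-ratios scaling, 13 and 20 once the length trend was taken out, 4 and 33 at a common sum). The higher ones included the centrosome scaffold gene spd-5 at 138 and 164 RPKM in sperm, against 38.5 and 34.5 RPKM in oocytes (2.01), and the lower ones the polo-like kinase gene plk-1 at 90.03 and 40.2 RPKM in sperm, against 307 and 351 RPKM in oocytes (-2.43).

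Structural proteins switched too. The beta tubulin gene ben-1 (C54C6.2) had 195 and 263 RPKM in sperm, against 25.9 and 28.8 RPKM in oocytes (log2 difference 3.01, SE 0.53, adjusted p = 0.00141), tbb-2 (C36E8.5) had 987 and 513 RPKM in sperm, against 4768 and 3428 RPKM in oocytes (log2 difference -2.51, SE 0.41, adjusted p = 0.00101), and tbb-1 had 938 and 682 RPKM in sperm, against 2039.5 and 1840.4 RPKM in oocytes (-1.28). The alpha tubulin genes tba-4 (without a call under quantile normalization) and tba-7 were higher at a low level, with tba-7 at 10.96 and 12.1 RPKM in sperm, against 0.0516 and 0.0328 RPKM in oocytes (3.59), and tba-1 was lower at 435 and 199.8 RPKM in sperm, against 2496 and 2043 RPKM in oocytes (-2.93). tba-2, the most abundant alpha tubulin gene of both gametes, had 1555 and 931 RPKM in sperm, against 3409 and 2420.4 RPKM in oocytes (-1.26). The more abundant tubulin genes were thus the lower ones, and they were still abundant in sperm. The calls of tbb-1 and tba-2 ended with median-of-ratios scaling and with the length trend removed, that of tbb-1 without either oocyte replicate and that of tba-2 without sperm replicate 2 or oocyte replicate 1. Among the actins, act-4, given above, and act-5 (2.58, not called with quantile normalization) were higher, act-2 was lower at 800.3 and 447 RPKM in sperm, against 2307 and 1814 RPKM in oocytes (-1.77, not called with the length trend removed), and act-1 and act-3 did not differ by more than 1 log2 in either direction by their 95% intervals (-0.8 to 0.7 and -0.96 to 0.71). With the length trend removed act-1 and act-3 differed by 0.81 and 0.72, and act-3 was called with quantile normalization. Actin genes are close in sequence and act-5 is also an intestinal marker, and act-4 is used in muscle.

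**Figure D4:**
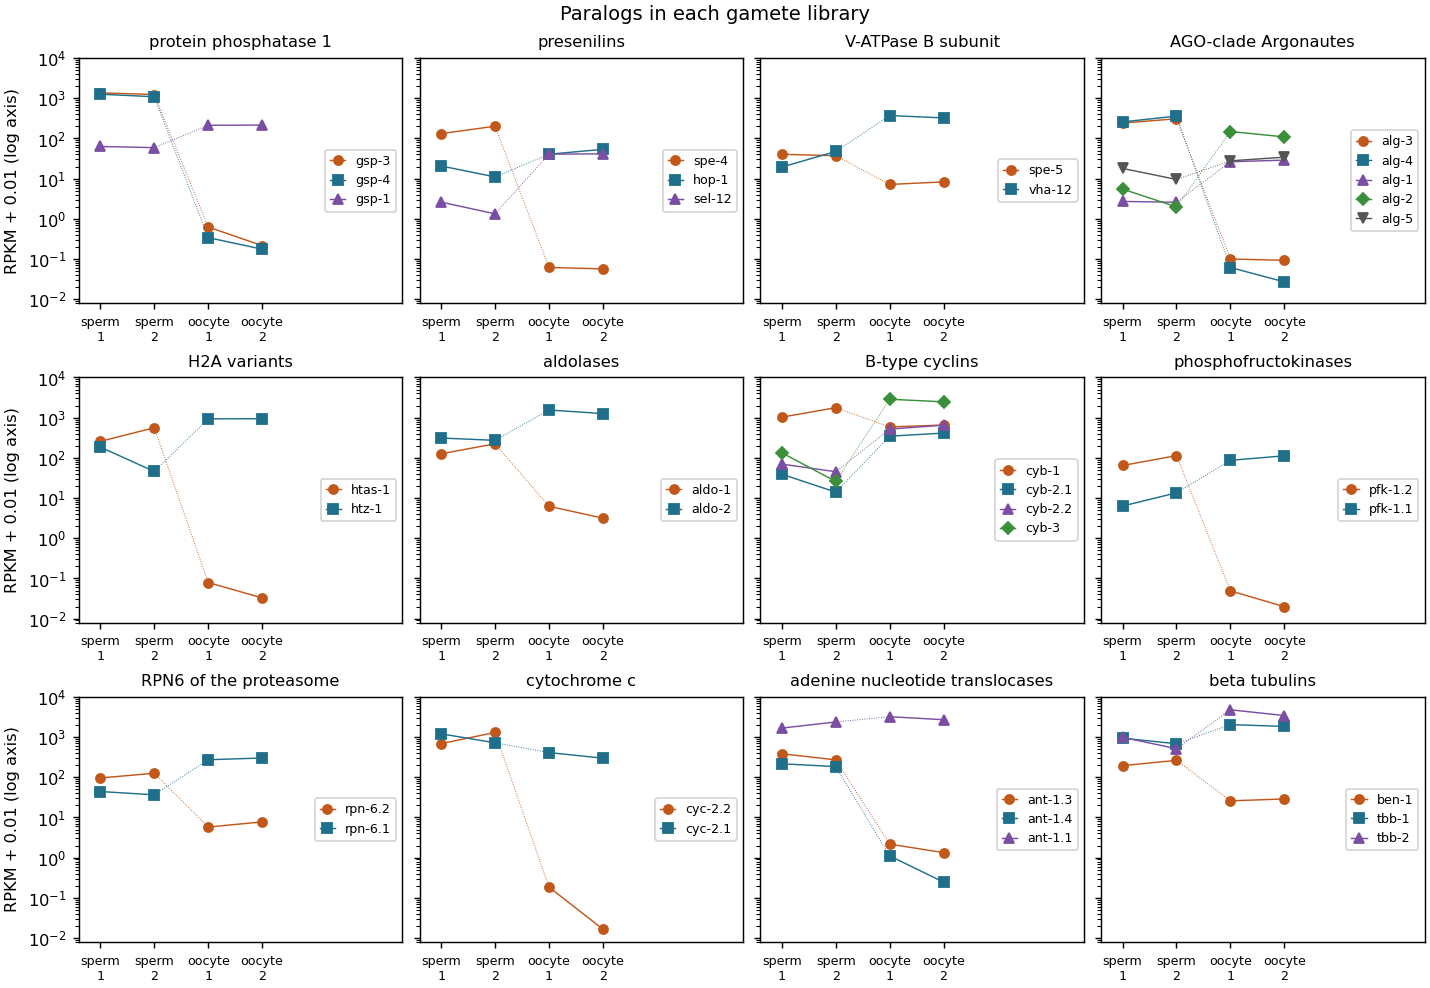
RPKM after adding 0.01 (log axis) of the members of 12 paralog families in each of the 4 gamete libraries; each symbol is a gene and lines join the values of that gene. In the first 9 panels and in the last panel at least 1 gene is higher and at least 1 lower in sperm, and for cytochrome c and the adenine nucleotide translocases a sperm gene is added to a gene that both gametes hold.

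Some functions were covered by a sperm gene beside a gene held by both gametes. Cytochrome c, the mobile electron carrier of mitochondria, has 2 genes. cyc-2.2 (ZC116.2) had 685 and 1302 RPKM in sperm, against 0.175 and 0.00662 RPKM in oocytes (log2 difference 9.76, SE 0.56, adjusted p = 2.94e-06), while cyc-2.1 (E04A4.7) had 1202 and 721 RPKM in sperm, against 411 and 298 RPKM in oocytes (log2 difference 1.41, SE 0.37, adjusted p = 0.0102). In sperm replicate 1 cyc-2.1 was the higher of the 2 and in replicate 2 cyc-2.2, and in oocytes cyc-2.2 was near 0. The call of cyc-2.1 ended without oocyte replicate 2, at a common sum and with quantile normalization. The adenine nucleotide translocases, which exchange ADP and ATP across the inner mitochondrial membrane, gave the same picture. ant-1.3 (K01H12.2) had 383 and 271 RPKM in sperm, against 2.16 and 1.32 RPKM in oocytes (log2 difference 6.9, SE 0.52, adjusted p = 1.2e-05), ant-1.4 was also higher (6.96), and ant-1.1 (T27E9.1) had 1671 and 2376 RPKM in sperm, against 3209 and 2699.7 RPKM in oocytes, a difference of -0.56 that was not called (95% interval -1.39 to 0.27). ant-1.1 was called lower at a common sum and with quantile normalization.

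Some other groups of like names also held switching pairs. The proteasome regulator gene rpn-6.2 (F59B2.5) had 95.9 and 126 RPKM in sperm, against 5.75 and 7.75 RPKM in oocytes (log2 difference 3.85, SE 0.34, adjusted p = 2.9e-05), and rpn-6.1 (F57B9.10) had 44.2 and 36.5 RPKM in sperm, against 273 and 302 RPKM in oocytes (log2 difference -2.81, SE 0.41, adjusted p = 0.000532). Sideroflexins, carriers of the inner mitochondrial membrane, had 4 higher genes, with sfxn-1.2 (F37H8.4) at 112 and 133 RPKM in sperm, against 0.0415 and 0.0276 RPKM in oocytes (log2 difference 6.9, SE 0.26, adjusted p = 1.06e-06), and 1 lower gene, sfxn-1.5 (T04F8.1), at 7.64 and 5.01 RPKM in sperm, against 84.2 and 91.9 RPKM in oocytes (log2 difference -3.63, SE 0.37, adjusted p = 6.5e-05). In both groups the sperm values and the oocyte values were well apart. The import channel genes timm-17B.2 and timm-17B.1 differed by 2.95 and -1.94, the first without a call when sperm replicate 2 was left out. The eIF4E family of cap-binding proteins held a weaker switch: ife-5 had 26.6 and 21.8 RPKM in sperm, against 11.05 and 8.89 RPKM in oocytes (1.2) and ife-2 had 7.16 and 13.6 RPKM in sperm, against 97.8 and 84.7 RPKM in oocytes (-3.08). The call of ife-5 ended without sperm replicate 1 or either oocyte replicate, at a common sum and with quantile normalization. Families without a switch included the 14-3-3 genes par-5 and ftt-2 (-1.85 and -2.41), both lower (par-5 not with the length trend removed), and the eEF1A genes, with neither called.

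Transcripts abundant in both gametes were counted at 100 RPKM or more in each of the 4 libraries. Of 325 such genes, 62 were higher in sperm, 96 were lower and 167 were not called. For 23 of the 167 the 95% interval of the difference lay within -1 and 1, and for the others a missing call does not show that the gametes are alike. The number of shared genes was 590 with median-of-ratios scaling, 699 with the length trend removed and 472 without sperm replicate 2. The 6 genes at 1000 RPKM or more in all 4 libraries were eef-1A.1, sip-1, Y82E9BR.3, ant-1.1, atp-1 and atp-2. eef-1A.1 (F31E3.5), for the elongation factor that brings tRNA to the ribosome, had 9376 and 4207 RPKM in sperm, against 8119 and 5445 RPKM in oocytes (95% interval -1.16 to 0.99). The ATP synthase genes atp-2 and atp-1 had 1338 and 1121 RPKM in sperm, against 2487 and 2145 RPKM in oocytes, and 1216 and 1039 RPKM in sperm, against 2378 and 1717 RPKM in oocytes. sip-1 (F43D9.4), for a small heat shock protein of the germ line, had 6193 and 1340.0 RPKM in sperm, against 15899 and 11457 RPKM in oocytes, and its sperm values differed from each other by more than 4 times. Y82E9BR.3 had 2738 and 2146 RPKM in sperm, against 4076 and 2892 RPKM in oocytes. None of the 6 was called as deposited. In 5 of them, all but eef-1A.1, both oocyte values lay above both sperm values, and the share of all members that separate so is not given. The same 5 were lower in sperm and called at a common sum and with quantile normalization, sip-1 also with the replicate block and atp-2 also without sperm replicate 1.

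Genes of the respiratory chain and ATP synthase were abundant in both gametes, and how their levels compare rests on the scaling. Their share of the summed RPKM was 1.70% and 1.57% in sperm, against 3.35% and 2.80% in oocytes. The summed level of 70 genes was 16206 and 15916 RPKM in sperm, against 22727 and 17969.5 RPKM in oocytes, and 39 of the 70 reached 100 RPKM in all 4 libraries. Of the 70, 4 were higher and 9 lower, both shares under those of the background, and for 11 the 95% interval lay within -1 and 1. The complex IV gene cox-5A had 779 and 669 RPKM in sperm, against 967 and 673 RPKM in oocytes (difference -0.16, 95% interval -0.92 to 0.6). isp-1, for the Rieske protein of complex III, had 404 and 415 RPKM in sperm, against 531 and 401 RPKM in oocytes (-0.17, -0.92 to 0.57), and ndub-10, a complex I gene, had 164 and 174 RPKM in sperm, against 162 and 171 RPKM in oocytes (0.02, -0.72 to 0.77). The values of the gametes overlapped in each of these 3 genes. The list's median was -0.55, and from -1.13 to 0.18 over the 5 scalings, so its sign depends on the scaling. Less that of all genes tested, the median was -0.71 (-0.89 to 0.11 under the other scalings). At a common sum 2 of the 70 were higher and 39 lower, with median-of-ratios scaling 10 were higher and 2 lower, and with the length trend removed cox-5A, isp-1 and ndub-10 differed by 0.66, 0.71 and 0.9. Without oocyte replicate 1 the counts were 3 higher and 2 lower, and without oocyte replicate 2 they were 2 and 5. Genes that departed from the rest were cyc-2.2 and mai-1, for an inhibitor of the ATP synthase, which was higher at 155 and 262 RPKM in sperm, against 48.1 and 45.5 RPKM in oocytes (2.09), while its relative mai-2 was lower at 333 and 263 RPKM in sperm, against 1011 and 689 RPKM in oocytes (-1.49). The call of mai-2 ended without sperm replicate 2 or oocyte replicate 1 and with median-of-ratios scaling. The citric acid cycle, which feeds the chain, had 2 higher and 10 lower genes of 26. The counts were 3 and 5 with the length trend removed, 5 and 7 with median-of-ratios scaling, and 1 and 17 at a common sum. The malate dehydrogenase gene mdh-2 had 211 and 195 RPKM in sperm, against 942 and 725 RPKM in oocytes (-2.02). idha-1, for a subunit of the mitochondrial isocitrate dehydrogenase, had 218 and 189 RPKM in sperm, against 225 and 205 RPKM in oocytes (-0.08, -0.85 to 0.69).

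Cytosolic ribosomal protein transcripts were present in both gametes and higher in sperm. Their 79 genes summed to 158918 and 81598 RPKM in sperm, against 15919.9 and 11328 RPKM in oocytes, 53 of them reached 100 RPKM in all 4 libraries, and 77 were higher, with 0 lower by limma. rps-4 (Y43B11AR.4) had 3829 and 1459.5 RPKM in sperm, against 223 and 158 RPKM in oocytes (log2 difference 3.65, SE 0.64, adjusted p = 0.00146), and rpl-2 (B0250.1) had 4300.5 and 1514 RPKM in sperm, against 282 and 205 RPKM in oocytes (log2 difference 3.4, SE 0.61, adjusted p = 0.00156). Each sperm value was above each oocyte value, and sperm replicate 1 held more than replicate 2 for 73 of the 79 genes. The list's median was 3.22, and from 2.43 to 3.98 over the 5 scalings, and 77 stayed higher with the length trend removed. The 2 that were not called were rpl-24.2 and rpl-12, the second at 1503 and 735 RPKM in sperm, against 749 and 597 RPKM in oocytes. rpl-42 stood out, at 46.9 and 97.6 RPKM in sperm, against 0.0325 and 0.00999576 RPKM in oocytes (6.07). Genes for ribosomal proteins of the mitochondrion were 0 higher and 25 lower of 67 by limma, but 6 higher and 7 lower with median-of-ratios scaling, 4 higher and 11 lower with the length trend removed, and 0 higher and 39 lower at a common sum. The lower count was 9 without oocyte replicate 1, 12 without oocyte replicate 2 and 13 without sperm replicate 2, and the list's median ran from -1.28 to 0.01 over the scalings. Translation factors were 5 higher and 11 lower of 35, with 2 and 13 without sperm replicate 1, 4 and 9 without sperm replicate 2, 1 and 9 without oocyte replicate 1, and 2 and 8 without oocyte replicate 2. Of 32 aminoacyl-tRNA synthetase genes 6 were higher and 3 lower, with 2 and 8 without sperm replicate 1, 3 and 3 without sperm replicate 2, 2 and 2 without oocyte replicate 1, and 1 and 1 without oocyte replicate 2. With median-of-ratios scaling the translation factors were 9 higher and 9 lower and the synthetases 11 and 1, and at a common sum they were 2 and 15, and 1 and 11. The medians of both lists changed sign between scalings (-0.94 to 0.46, and -0.57 to 0.76).

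**Figure D5:**
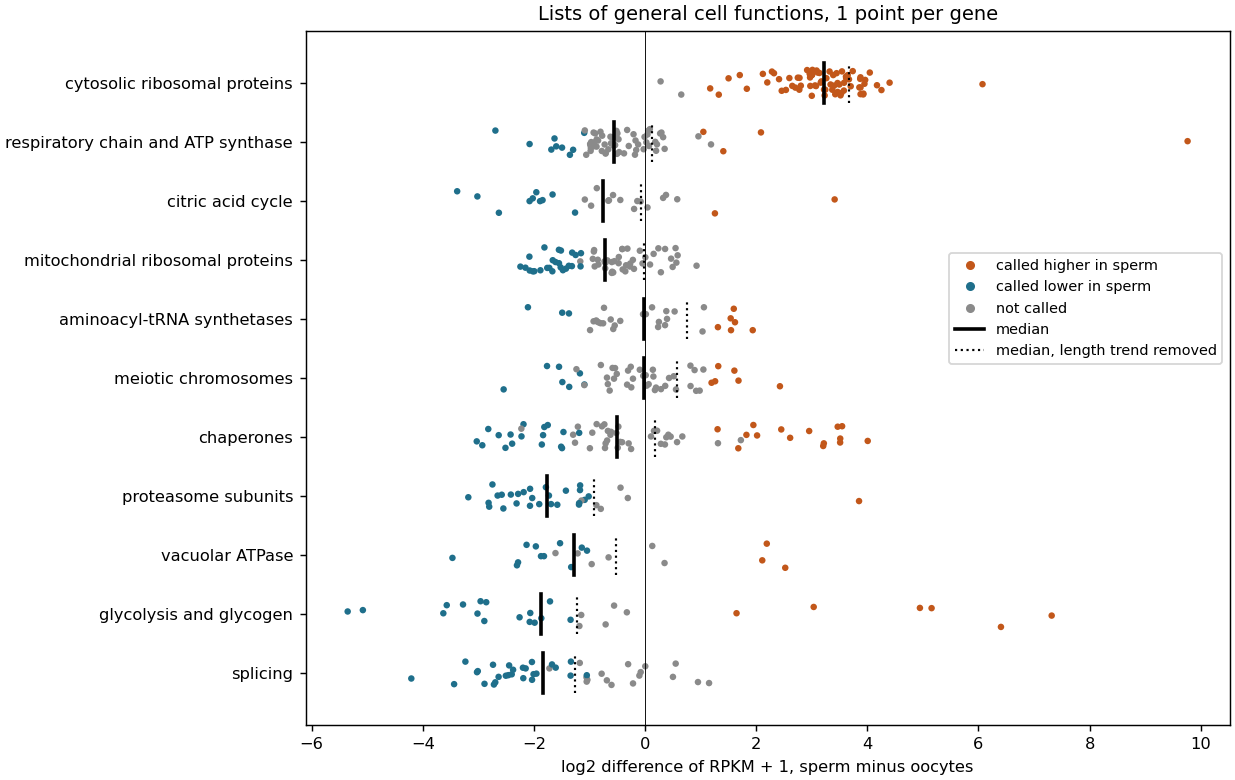
Log2 difference of RPKM + 1 between sperm and oocytes for each gene (1 point) of 11 lists of general functions, coloured by call; thick lines are medians and dotted lines are medians with the length trend removed. Cytosolic ribosomal proteins lie around 3.22 and the respiratory chain around -0.55, and splicing, glycolysis and proteasome genes lie below -1 at the median.

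Genes of protein breakdown were expressed in both gametes, at a lower level in sperm. Of 32 proteasome subunit genes, 26 were lower and 1, rpn-6.2, was higher, and 19 reached 100 RPKM in all 4 libraries. pbs-1 (K08D12.1), for a subunit of the catalytic core, had 269 and 111 RPKM in sperm, against 1246 and 957 RPKM in oocytes (log2 difference -2.65, SE 0.46, adjusted p = 0.00129), and pas-5 (F25H2.9), for a subunit of its outer ring, had 156 and 102.4 RPKM in sperm, against 847 and 683 RPKM in oocytes (log2 difference -2.58, SE 0.39, adjusted p = 0.000628). No sperm library reached either oocyte library for these genes. The median less that of all genes was -1.92 (-2.1 to -1.07 under the other scalings), and 15 were lower with the length trend removed and with median-of-ratios scaling. The ubiquitin-activating gene uba-1 had 139 and 97.9 RPKM in sperm, against 357 and 495 RPKM in oocytes (-1.84). F-box genes, which choose the targets of ubiquitin ligases, were found on both sides of the ubiquitin list: fbxa-202 had 31.8 and 72.5 RPKM in sperm, against 0.00904 and 0.00504 RPKM in oocytes (5.61), and fbxa-170 had 0.533 and 0.203 RPKM in sperm, against 33.4 and 37.3 RPKM in oocytes (-4.74). Of 326 ubiquitin genes, 96 passed the filter, and 20 were higher and 40 lower (25 and 32 with median-of-ratios scaling, 10 and 57 with quantile normalization).

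Glycolysis and glycogen genes were lower in 16 of 27 cases and higher in 6. pygl-1 (T22F3.3), for glycogen phosphorylase, had 62.1 and 41.1 RPKM in sperm, against 1815 and 1670.2 RPKM in oocytes (log2 difference -5.08, SE 0.37, adjusted p = 1.02e-05), and the glycogen synthase gene gsy-1 had 23.4 and 13.7 RPKM in sperm, against 203 and 247 RPKM in oocytes (-3.57). The glyceraldehyde-3-phosphate dehydrogenase genes gpd-1 and gpd-4, which are close in sequence, differed by -3.63 and -2.96. Oocytes lay above sperm in each of these genes, and the 6 higher genes were aldo-1, pfk-1.2, pck-1, pck-3, gyg-1 and pyk-2, the last at 2.13 and 5.29 RPKM in sperm, against 0.391 and 0.446 RPKM in oocytes. pyk-2 had the other sign with quantile normalization (-0.26). The median of the list less that of all genes was -2.03 (-2.21 to -1.27 under the other scalings).

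Genes for splicing and nuclear transport were mostly lower in sperm. Splicing genes were 0 higher and 27 lower of 44 by limma (1 to 4 higher with quantile normalization, with the length trend removed, with median-of-ratios scaling or without sperm replicate 2), with rsp-3 (Y111B2A.18), for an SR protein, at 165 and 49.7 RPKM in sperm, against 1003 and 741 RPKM in oocytes (log2 difference -3.23, SE 0.62, adjusted p = 0.00226). Genes of the nuclear pore and of import were 1 higher and 24 lower of 38. The Ran GTPase gene ran-1 (K01G5.4), which sets the direction of transport, had 367 and 184 RPKM in sperm, against 2918 and 2377 RPKM in oocytes (log2 difference -3.33, SE 0.42, adjusted p = 0.000218), and the importin alpha gene ima-2 had 85.4 and 30.9 RPKM in sperm, against 933 and 1197 RPKM in oocytes (-4.33). No gamete values overlapped for these genes. The medians less that of all genes were -2.0 (-2.18 to -1.05 under the other scalings) and -1.83 (-2.01 to -1.11 under the other scalings). The single higher gene of the second list lost its call without oocyte replicate 1 and at a common sum. The count of lower pore and import genes was 9 without sperm replicate 2, 14 without oocyte replicate 1, 13 without oocyte replicate 2, 14 with the length trend removed and 12 with median-of-ratios scaling.

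Genes of early embryonic polarity and cell fate were 2 higher and 18 lower of 34 (7 and 14 with median-of-ratios scaling, 1 and 22 at a common sum). The Wnt ligand gene mom-2 (F38E1.7) had 33.6 and 15.1 RPKM in sperm, against 440.3 and 441 RPKM in oocytes (log2 difference -4.23, SE 0.40, adjusted p = 4.52e-05), the GTPase gene cdc-42 (R07G3.1) had 79.2 and 51.98 RPKM in sperm, against 321 and 339.9 RPKM in oocytes (log2 difference -2.34, SE 0.35, adjusted p = 0.000596), and the polarity gene par-6 had 19.5 and 10.3 RPKM in sperm, against 87.6 and 92.00 RPKM in oocytes (-2.58, not called without sperm replicate 2). All sperm values were under all oocyte values in these 3 genes, yet none was near 0 in sperm. The higher ones included gpr-2, a regulator of spindle pulling, at 53.8 and 53.02 RPKM in sperm, against 10.7 and 11.5 RPKM in oocytes (2.17). Without oocyte replicate 1 or oocyte replicate 2, 1 gene of the list was higher. Meiotic chromosome genes, needed in the precursors of both gametes, were 6 higher and 7 lower of 48, and 48 of 48 had at least 1 RPKM in all 4 libraries. syp-1, of the synaptonemal complex, had 78.1 and 44.2 RPKM in sperm, against 11.1 and 9.18 RPKM in oocytes (2.43), and wapl-1, which releases cohesin, had 22.7 and 10.05 RPKM in sperm, against 79.7 and 109.8 RPKM in oocytes (-2.55). The call of wapl-1 ended without sperm replicate 2 or oocyte replicate 2. The counts for this list were 13 higher and 1 lower with median-of-ratios scaling, 1 and 10 at a common sum, 3 and 8 without sperm replicate 1, 6 and 1 without sperm replicate 2, 1 and 2 without oocyte replicate 1, and 2 and 1 without oocyte replicate 2.

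Chaperone and stress genes were called in both directions, though 12 of them passed the filter through the sperm libraries alone and so had to differ. The shares over all genes tested, 36.7% higher and 24.6% lower, are the background for this list and for the redox genes below. Of 66 chaperone genes, 15 were higher and 17 lower (12 and 11 without oocyte replicate 2, 5 and 24 with quantile normalization, 21 and 9 with median-of-ratios scaling). The lower ones included 6 genes of the CCT chaperonin, which folds actin and tubulin, with cct-5 (C07G2.3) at 191 and 98.9 RPKM in sperm, against 596 and 667 RPKM in oocytes (log2 difference -2.19, SE 0.41, adjusted p = 0.00205), and the constitutive Hsp70 gene hsp-1 at 1631 and 826 RPKM in sperm, against 3445 and 3112 RPKM in oocytes (-1.5). The higher ones included 6 hsp-16 genes and hsp-70, which are known to be heat-inducible, with hsp-16.48 at 4.53 and 33.5 RPKM in sperm, against 0.177 and 0.189 RPKM in oocytes (3.55) and hsp-70 at 2.18 and 11.9 RPKM in sperm, against 0.0443 and 0.0492 RPKM in oocytes (2.61). For these inducible genes sperm replicate 2 lay several times above replicate 1, and both lay above the oocytes, though with quantile normalization hsp-16.48 and hsp-70 were not called. The hsp-16 genes are near copies of each other. The call of hsp-1 ended without sperm replicate 2, without either oocyte replicate, with median-of-ratios scaling and once the length trend was taken out. Across scalings, the median of the list changed its sign (-1.07 to 0.19). Redox genes were 12 higher and 11 lower of the 35 that passed the filter, with the peroxiredoxin gene prdx-2 (F09E5.15) at 257 and 143 RPKM in sperm, against 1549.9 and 1366 RPKM in oocytes (log2 difference -2.92, SE 0.59, adjusted p = 0.00289) and gst-7 (F11G11.2), for a glutathione S-transferase, at 32.2 and 39.9 RPKM in sperm, against 994 and 787 RPKM in oocytes (log2 difference -4.59, SE 0.34, adjusted p = 9.92e-06). Both were far lower in both sperm libraries than in either oocyte library. Of the 35 redox genes, 10 passed the filter through the sperm libraries alone and 4 through the oocyte libraries alone, so that these had to differ. The higher redox genes were rarer, with gpx-1 at 30.2 and 98.9 RPKM in sperm, against 15.2 and 15.8 RPKM in oocytes (1.76), a call that ended without sperm replicate 2, without either oocyte replicate and at a common sum. The number of higher redox genes was 7 without sperm replicate 2, 7 without oocyte replicate 1, 5 without oocyte replicate 2, 3 with quantile normalization, and 18 with median-of-ratios scaling. With quantile normalization the list's median had the other sign (-0.52 to 1.4 over the scalings).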

How the data were processed

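Polyadenylated RNA was fragmented, copied with random hexamers and sequenced, per the labels' protocols. The authors deposited 1 table of RPKM values for 21774 genes in 8 libraries, and every column was used. BWA is named, without a version, in the submitters' processing notes; the genome build, annotation, counting tool and read depth are not given in the sources used here, so no coordinates, counts or depth intervals are printed, and nothing says whether all columns were made alike. Gene names came from the Ensembl release 115 annotation and, where it gave no single match or the same name for several genes, from RefSeq locus tags. Together these matched 18743 of the 21774 genes. Transcript lengths came from Ensembl alone. No sequences were used.

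The test set was the 11935 genes that reached 1 RPKM in 2 or more of the 8 libraries. For sperm minus oocytes, limma 3.58.1 (R 4.3.3) was run on log2(RPKM + 1) from the deposited RPKM, as a model of 4 groups with a trended variance. Calls needed a Benjamini-Hochberg adjusted p under 0.05 and a difference of at least 1. Tables were made with Python 3.11.15 and pandas 2.3.3. Alternatives were other pseudocounts, filters, scalings, weights, a replicate block and each gamete library left out, and the code was tested on simulated data. A 50% protein identity rule for pairs was not run, and families written by name took its place.

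Members and lists were chosen with earlier results of these data known. Genes were named by level: the 12 most abundant called in each direction, up to 4 called genes of each list, family members, strongest name pairs, the 12 most abundant in both gametes and up to 5 under 1 RPKM in both libraries of a gamete. Other genes in the text were chosen after their values were seen.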

Additional observations from a re-analysis of the deposited data

How the results depend on the processing

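Of the counts of members, those called higher numbered 2269 with a filter of 10 RPKM and 2807 with quantile normalization, and those called lower 1928 with median-of-ratios scaling; the other alternatives kept both within 1.5 times. Leaving out a gamete library gave 3964 to 4208 higher and 2006 to 2794 lower. Switching pairs of the families numbered 15 with the length trend removed, 16 with a variance weight for each group and 16 to 25 with a library left out, and the name groups gave 29. Genes at 100 RPKM or more in all libraries numbered 590 with median-of-ratios scaling, 699 with the length trend removed and 333 to 472 with a library left out, and 732 reached 50 RPKM. No member changed direction between calls. With quantile normalization vit-3 (-1.04), unc-64 (-0.19) and pyk-2 (-0.26) had the other sign. The causes were not tested. Whether same-numbered libraries of the groups were prepared together is not stated. The deviations of same-numbered sperm and oocyte libraries had a correlation of -0.068. With a single difference between replicates per gamete, this cannot show whether they shared a batch. With the replicate block, 4391 members were higher, 3106 lower and 24 pairs switched, and of 258 named genes 5 gained and 2 lost a call. With a variance weight for each group, 23 of the 258 named genes lost their call. Among them were alg-5, cyb-1, cyc-2.1, hop-1, ife-5, mai-2, pgl-1, tba-2 and unc-119. With 2 libraries a gamete and a wider spread in sperm, small differences are not resolved.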

Other observations

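Calls were also counted by chromosome, since the X is largely silent in the male germ line of this species. Of the 1028 members on the X, 31.8% were higher in sperm and 46.3% were lower, against 31.2% to 45.8% higher and 23.4% to 28.3% lower on the 5 autosomes. Among abundant transcripts, members called higher with a sperm mean of at least 100 RPKM were 13, or 1.26% of the members on the X, against 5.84% to 11.98% on the autosomes. Members called lower with an oocyte mean of at least 100 RPKM were 4.67% on the X, against 9.38% to 12.3% on the autosomes. Chromosomes were taken from the Ensembl annotation, or from RefSeq for genes matched only there. Genes of a chromosome are not replicates, and no test was made.

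Of the 11060 members, 652 carry names that begin with RIT, which the annotation used here does not hold. Of these, 379 were higher in sperm and 69 lower, and 1 of them, RIT1P.688, was among the 12 most abundant genes of both gametes, at 1859 and 1872 RPKM in sperm, against 1419 and 757 RPKM in oocytes (0.85, not called).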
